A study of Mus musculus with 19 samples.

Results

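The Cyp2 family is the largest family of cytochrome P450 enzymes in the mouse. Its members were taken as every probe, control spots aside, whose RefSeq accession belongs to a protein-coding gene with a symbol of Cyp2 followed by a subfamily letter and a number. The RefSeq table used here lists 47 such genes. The array carried 56 probes for 43 of them, out of 55681 probes and 20018 named genes in all. Cyp2a5, Cyp2c40, Cyp2c69 and Cyp2j12 had no probe under this rule, and the pseudogenes Cyp2d13 and Cyp2j7 were left out by it. The rule itself uses no measured value, though it was chosen with earlier results of these data known.

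Cytochromes P450 of this family sit in the membrane of the endoplasmic reticulum and use a haem iron, molecular oxygen and electrons from the reductase Por to oxidise drugs, steroids, fatty acids and environmental chemicals. Hepatocytes express many of them at very high levels, several only around the central vein or around the portal vein, and several in one sex more than in the other. The nuclear receptor CAR (gene Nr1i3) is known for switching on Cyp2b10 and Cyp2c genes. The aryl hydrocarbon receptor, which binds polycyclic aromatic hydrocarbons, is best known for the Cyp1 genes instead. The clock output factors Dbp, Tef and Hlf are known to drive Cyp2a4, Cyp2a5 and Cyp2b10.

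Livers came from male mice, 10 weeks old, of the transgenic strain 40.6, killed 3 days after treatment with DB[a,h]A, which is dibenz[a,h]anthracene, a hydrocarbon of fused aromatic rings. All mice, controls included, carried the transgene. The doses were 0, 6.25, 12.5 and 25 mg/kg, with 5, 5, 4 and 5 animals and 1 array for each animal. The vehicle of the 0 mg/kg controls is not given in the sources used here. On every array liver RNA was labelled with Cy5 (red) against a pooled reference RNA of 11 mouse cell lines in Cy3 (green), and the dyes were never swapped. The basic value is therefore the log2 ratio of liver over reference, and a change is the mean log2 ratio of a dose minus that of the controls.

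Between 35.5% and 56.7% of probes per array were well above background in the liver channel. The arrays lay on 3 slides, each holding all 4 groups. The slide with 5 arrays was scanned 7 days after the other slides. Every fit was therefore also made with the slide as a block. The hepatocyte list of 7 genes was measured in full, with a mean log2 ratio of 6.83 to 8.67 over the arrays. Summed as mean log2 ratios, the markers of other cells ran from 2.65 to 4.85 for 6 of 6 Kupffer cell genes, from -2.45 to -1.47 for 3 of 4 cholangiocyte genes (Epcam was not measured) and from 0.60 to 1.21 for 2 of 5 pancreas genes. Of 3 adipocyte genes 1 was measured, and the 2 measured erythroid genes ran from 4.91 to 6.52. All of these are ratios to the reference cell lines, so they also depend on what those lines express. None of these lists held a called gene at 25 mg/kg.

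In the liver channel read alone, with the slide as a block, 2 of 37 measured Cyp2 genes passed the test at 25 mg/kg. This is 5.41%, beside 1.1% of the 13812 named genes tested (152 genes). Cyp2a4, a testosterone 15-alpha-hydroxylase that female livers are known to express more than male ones, rose 2.76-fold. Cyp2d40 fell 1.52-fold. As a ratio to the reference neither gene passed the test, and the reference channel of both spots differed from the controls in the same direction as the liver channel. In whole-liver RNA, fewer cells of a type and less RNA per cell cannot be told apart. The single-channel fit was added after the ratios had been seen, Cyp2d40 was singled out after its values were seen, and without the slide block no Cyp2 gene was called in the liver channel (background 0.42%, 58 genes; 6 Cyp2 genes at an unadjusted limma p under 0.05, beside 12.2%). With the block 9 had an unadjusted p under 0.05, beside 15.5%.

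The promoters of Cyp2a4, its close relative Cyp2a5 and Cyp2b10 are shown because these are the members known to respond to clock output factors. They are RefSeq sequences of build GRCm38.p6, the 110 bases before the annotated start, all on the plus strand: chr7:26307082-26307191 for Cyp2a4, chr7:26835229-26835338 for Cyp2a5 and chr7:25897548-25897657 for Cyp2b10. Capitals mark the word TTATGCAA, here read on the other strand as TTGCATAA, and the TATA word TATAAA.
Cyp2a4: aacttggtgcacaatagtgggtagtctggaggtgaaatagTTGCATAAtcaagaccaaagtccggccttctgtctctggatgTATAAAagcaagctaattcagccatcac
Cyp2a5: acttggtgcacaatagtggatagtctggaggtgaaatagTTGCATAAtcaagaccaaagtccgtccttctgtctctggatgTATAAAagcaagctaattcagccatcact
Cyp2b10: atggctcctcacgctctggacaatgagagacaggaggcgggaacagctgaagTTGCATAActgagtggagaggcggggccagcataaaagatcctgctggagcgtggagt

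The windows of Cyp2a4 and Cyp2a5 matched at 294 of 299 aligned bases (98.3%), so the paired genes are nearly identical there. Words were searched on both strands in windows of 300 bases, 250 before and 50 after the start, of which 42 belonged to 40 Cyp2 genes. TTATGCAA, a close variant of the site that clock output factors bind, was in 5 of these 42 windows (11.9%) and in 0.743% of all 32851 windows. Besides the 3 genes shown, Cyp2b19 and Cyp2b23 held it. The words TTATGTAA and TTACGTAA were in no Cyp2 window, beside 0.938% and 0.119% of all windows. GCGTG, the core that the aryl hydrocarbon receptor binds, was in 8 Cyp2 windows (19%) and in 32.4% of all, and TATAAA was in 21 (50%) and in 13.6%. A word match is a description of the sequence only, and closely related genes share their sequence.

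The log2 liver signal of Cyp2a4 was 14.59, 14.52, 14.42, 14.51 and 14.87 in the controls. It was 15.18, 15.20, 15.89, 14.85 and 16.44 at 6.25 mg/kg, 15.76, 15.00, 15.05 and 15.19 at 12.5 mg/kg, and 16.17, 16.35, 14.87, 17.02 and 15.72 at 25 mg/kg. The control mean of 14.58 ± 0.17 (SD, n = 5) was thus followed by 15.51 ± 0.64 (n = 5), 15.25 ± 0.35 (n = 4) and 16.03 ± 0.80 (n = 5). All animals at 12.5 and 25 mg/kg lay above all controls, although the lowest array at 25 mg/kg (14.8732) barely passed the highest control (14.8691), and at 6.25 mg/kg 1 array lay within the control range. Among the named genes, 2.36% lay above the controls without overlap in this channel at 25 mg/kg and 0.818% at 12.5 mg/kg, and Cyp2a4 was the one Cyp2 gene to do so at either dose.

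With the slide block, Cyp2a4 at 25 mg/kg was 1.46 log2 units above the controls (SE 0.328, 95% interval 0.77 to 2.16, limma adjusted p = 0.0429). The difference was 1.03, 1.48 and 1.67 on the slides taken one by one. Without the block it was 1.44 (SE 0.317, adjusted p = 0.0596). The second kept Cyp2a4 probe gave 1.48 with the block (limma adjusted p = 0.0383), though its groups overlapped. With the block the difference at 12.5 mg/kg was 0.70 (adjusted p = 0.554) and at 6.25 mg/kg 0.95 (adjusted p = 0.303), neither of which passed the test. The call at 25 mg/kg was kept in 7 of 19 fits that left out 1 array each, with changes of 1.14 to 1.76 and adjusted p of 0.0311 to 0.124. It was lost without any single control array, replicate 2 at 6.25 mg/kg, replicate 2, 3 or 4 at 12.5 mg/kg, or replicate 1, 2 or 4 at 25 mg/kg.

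The green channel holds the same reference RNA on every array, yet its log2 signal at the Cyp2a4 spot was 8.90, 8.71, 9.43, 8.63 and 8.88 in the controls and 10.13, 10.46, 9.80, 10.98 and 9.44 at 25 mg/kg. These groups did not overlap either, at 8.91 ± 0.31 and 10.16 ± 0.59 (SD, n = 5 each). The difference was 1.25 (SE 0.270, limma adjusted p = 0.999 over all probes; 1.17 with the block, adjusted p = 0.957). Without the block, Cyp2a4 was the 1 Cyp2 gene with an unadjusted limma p under 0.05 in this channel, beside 113 of 13812 named genes. The same direction without overlap was seen in the reference channel of 12 of the 13812 named genes (0.0869%), and Cyp2a4 was the one of these that also did so in the liver channel. The raw liver median signals of the spot ran from 12350 to 136171 and the raw reference signals from 326 to 1943.

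The log2 ratio of Cyp2a4 was 6.83, 6.98, 6.13, 7.31 and 7.36 in the controls and 7.17, 6.98, 6.32, 7.21 and 7.65 at 25 mg/kg. These groups overlapped almost fully, at 6.92 ± 0.50 and 7.07 ± 0.48 (SD, n = 5 each). The ratio differed by 0.14 (SE 0.290), or by 0.27 with the block (SE 0.166, limma adjusted p = 0.480). The reason why the reference channel moved with the liver channel was not tested. Neither was how far transcripts of Cyp2a5, a coumarin 7-hydroxylase that had no probe of its own here, add to the Cyp2a4 signal.

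**Figure D1:**
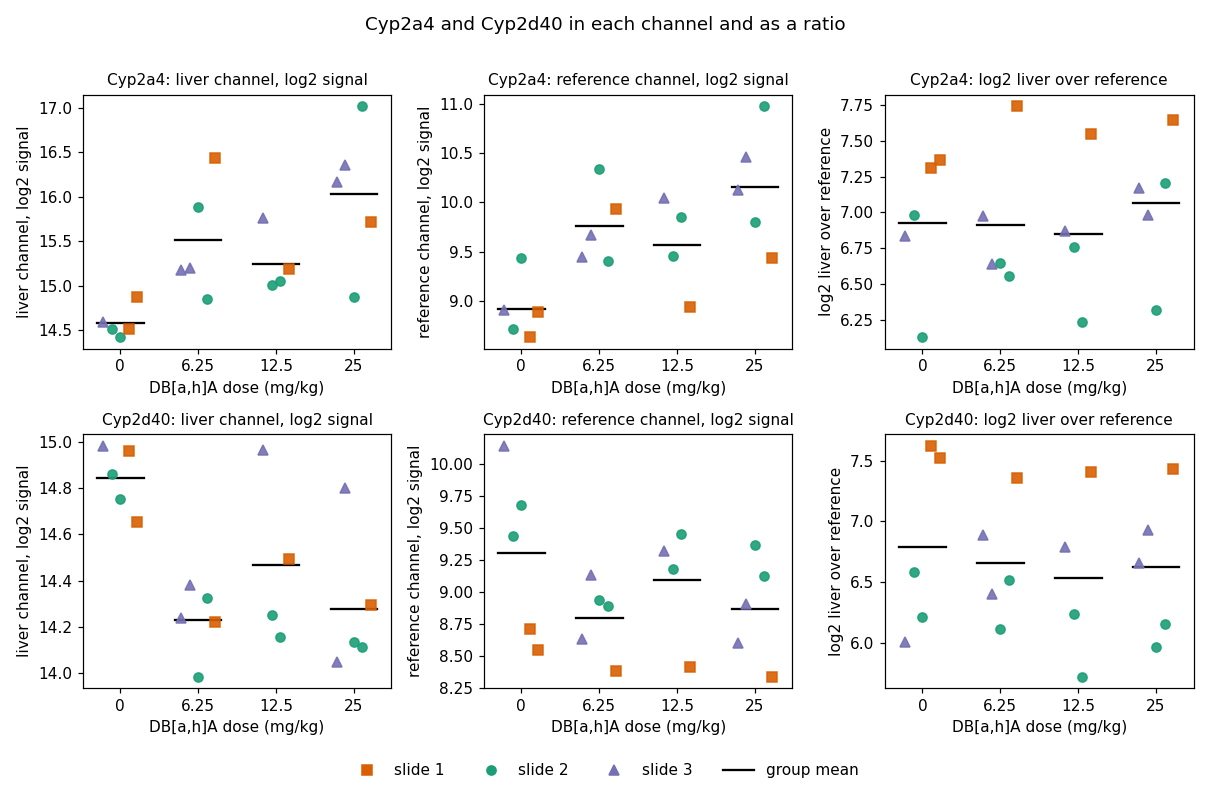
Log2 signal of Cyp2a4 (top row) and Cyp2d40 (bottom row) in the liver channel, in the reference channel and as log2 ratio, against DB[a,h]A dose in mg/kg; each point is 1 array, its shape and colour the slide, and the line the group mean. In the liver channel the Cyp2a4 mean goes from 14.58 in controls to 16.03 at 25 mg/kg, and the reference channel goes the same way from 8.91 to 10.16, so the ratio stays near 7.

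Cyp2d40 ran the other way. Its log2 liver signal was 14.98, 14.86, 14.75, 14.96 and 14.65 in the controls, 14.24, 14.38, 13.98, 14.33 and 14.22 at 6.25 mg/kg, 14.96, 14.25, 14.16 and 14.49 at 12.5 mg/kg, and 14.05, 14.80, 14.13, 14.11 and 14.29 at 25 mg/kg. All arrays at 6.25 mg/kg lay below all controls (0.557% of named genes did so), whereas 1 array at 12.5 mg/kg and 1 at 25 mg/kg lay among the controls. With the slide block the signal at 25 mg/kg was lower by a log2 change of -0.60 (SE 0.130, limma adjusted p = 0.0348), and by -0.51, -0.69 and -0.56 on the single slides.

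At 6.25 mg/kg the Cyp2d40 difference in the liver channel with the block was -0.65 (adjusted p = 0.0951), and at 12.5 mg/kg it was -0.37 (adjusted p = 0.435). Neither passed the test. Without the block the difference at 25 mg/kg was -0.56 in the liver channel (limma adjusted p = 0.120) and -0.44 in the reference channel (adjusted p = 0.999). With the block the reference channel differed by -0.60 (adjusted p = 0.984). The ratio differed by -0.16 (SE 0.367), or 0.01 with the block. The call was kept in 11 of 19 fits that left out 1 array each (adjusted p 0.0258 to 0.0914). It was lost without replicate 1, 3, 4 or 5 at 25 mg/kg or control 1, 2, 3 or 4.

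Other ways of preparing the liver channel were tried with the slide block. Without background subtraction and with the 75th percentile of each array set equal, Cyp2a4 rose by 1.57 (limma adjusted p = 0.0246), while Cyp2d40 at -0.47 missed the threshold (adjusted p = 0.0680). When the ratios were fitted first and the average intensities then quantile-normalized, both calls were kept (Cyp2a4 1.45, adjusted p = 0.0430; Cyp2d40 -0.59, adjusted p = 0.0350). With the later-scanned slide left out, neither was called (Cyp2a4 1.56, adjusted p = 0.0982; Cyp2d40 -0.65, adjusted p = 0.116). At 12.5 and 6.25 mg/kg no Cyp2 gene was called in the liver channel with the block, beside 0.00724% of named genes at either dose, and 5 Cyp2 genes had an unadjusted limma p under 0.05 at each, beside 10.1% and 11.9% of named genes.

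As ratios, no Cyp2 gene passed the test at any dose, with or without the slide block. At 25 mg/kg limma called 0 of 37, beside 0.0507% of named genes (7 genes), and 0 of 37 with the block, beside 0.992% (137 genes). An unadjusted p under 0.05 was reached by 1 Cyp2 gene (2.7%; 8.62% of named genes), or 3 with the block (8.11%; 16.2%). At 12.5 and 6.25 mg/kg limma called 0 Cyp2 genes and 0% of named genes, or 0.00724% at 12.5 mg/kg with the block. At 12.5 mg/kg 2 Cyp2 genes had an unadjusted p under 0.05 and at 6.25 mg/kg 0 did, with the same counts under the block, beside 4.99% and 5.7% of named genes (10.7% and 12% with the block). No member's ratio separated any dose from the controls without overlap. Of the named genes 1.27% did so upwards and 0.854% downwards at 25 mg/kg, 0.623% and 1.11% at 12.5 mg/kg, and 0.702% and 0.391% at 6.25 mg/kg. A linear trend over dose and a test of any dose also called 0 Cyp2 genes, beside 0.0217% and 0.00724% of named genes (0.297% and 0.0869% with the block).

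Without the block the Cyp2 ratios were more often lower than higher at every dose. With it, 23 of 37 were lower at 12.5 mg/kg, 19 at 25 mg/kg and 17 at 6.25 mg/kg. The median change of the 37 genes was -0.13 at 25 mg/kg, -0.21 at 12.5 mg/kg and -0.12 at 6.25 mg/kg, with 30, 31 and 28 genes lower, where the median of all named genes was -0.01, -0.02 and 0.00 and 51.7%, 53.9% and 49.2% of them were lower. The 3 doses share their controls. In the liver channel alone the median change of these genes was -0.01 at 25 mg/kg, -0.11 at 12.5 mg/kg and 0.10 at 6.25 mg/kg. In the reference channel alone it was 0.11, 0.02 and 0.13. A lower ratio was thus not always a lower liver signal. With the block the medians of the ratio were -0.00, -0.08 and 0.02, with 18, 14 and 20 genes higher, beside 48.7%, 48.4% and 51.4% of named genes. The 7 hepatocyte marker genes did likewise, all lower at 25 mg/kg with a median of -0.25, or -0.05 with the block, and their part in the Cyp2 values was not tested.

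The intervals bound how large an unseen change of the ratio could be. They do not bound a change in the liver channel alone. With the block, Cyp2a4 at 25 mg/kg differed by 0.27 in the ratio but by 1.46 in the liver channel. At 25 mg/kg the 95% interval of the ratio lay within 2-fold in either direction for 24 of 37 genes, and with the slide block for 34. Cyp2b10, Cyp2c23 and Cyp2g1 were the 3 exceptions under the block. The median SE was 0.294, and 0.134 with the block.

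**Figure D2:**
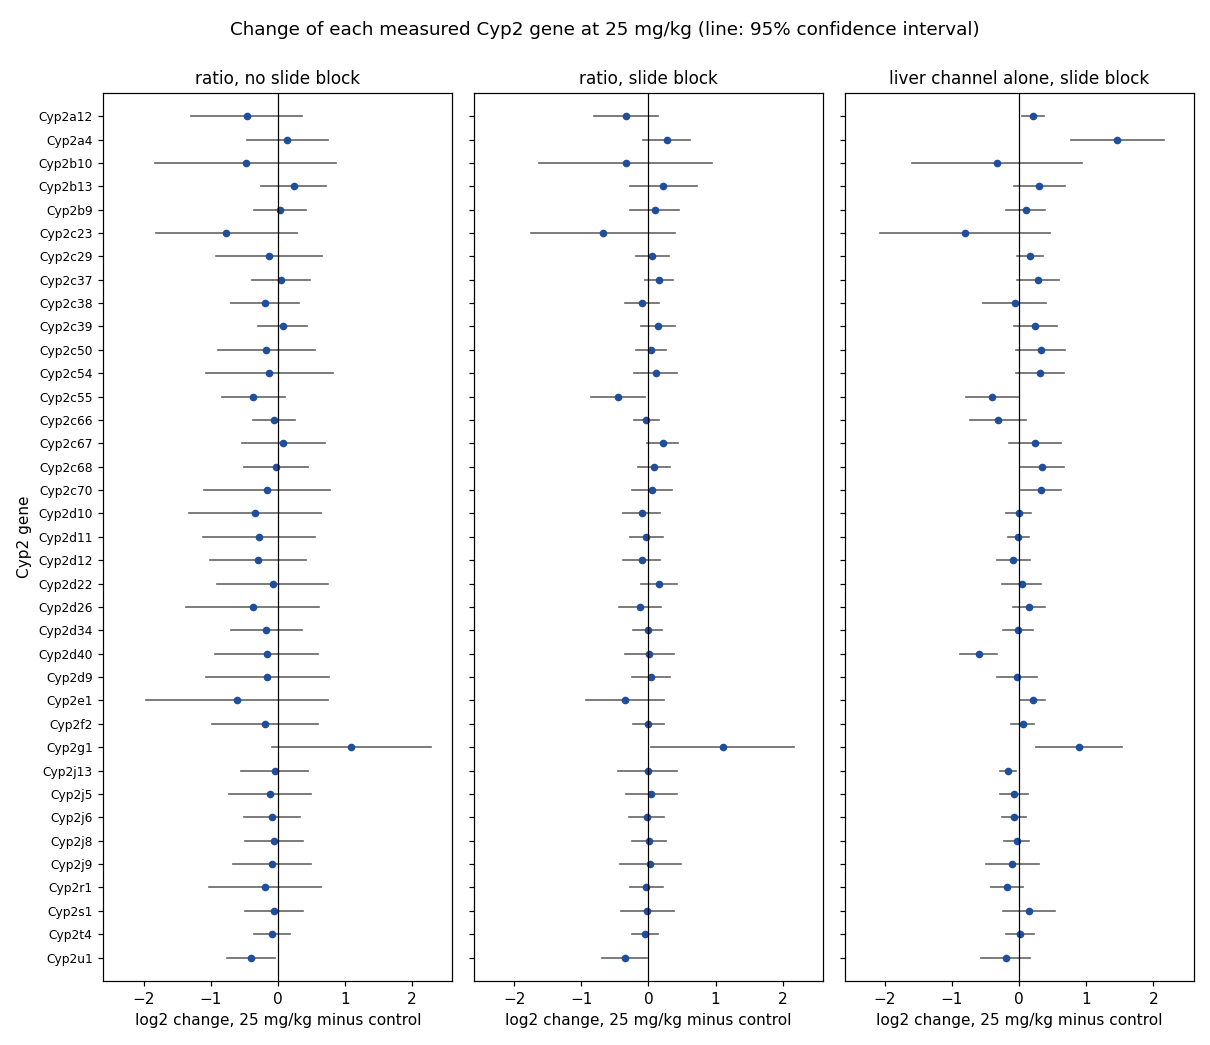
Log2 change at 25 mg/kg against controls for each of the 37 measured Cyp2 genes, with its 95% confidence interval as a line, in separate panels by quantity and fit on shared axes. Intervals of the ratio are narrower with the slide as a block (median SE 0.134 against 0.294), and in the liver channel Cyp2a4 stands at 1.46 and Cyp2d40 at -0.60.

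Most of the spread in the Cyp2 ratios lay between slides. Among the 37 genes it took a median of 72.4% of the variance over arrays (range 2.02% to 93.8%), against 40.8% for 13546 named genes, and dose took 4.52% against 13.3%. The median SD within groups was 0.507 for Cyp2 genes and 0.238 for named genes. Read one channel at a time, slide took a median of 19.8% of the Cyp2 variance in the liver channel and 70.4% in the reference channel. For Cyp2f2 these shares were 25.7% and 93.6%, and for Cyp2e1 20.2% and 83.8%. By the medians, slide thus took a larger share of the variance in the green signal than in the red one. Some members went the other way, as in Cyp2j13 (78.7% in the liver channel, 5.27% in the reference channel) and Cyp2j5 (19.8% and 8.28%). The cause was not tested.

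**Figure D3:**
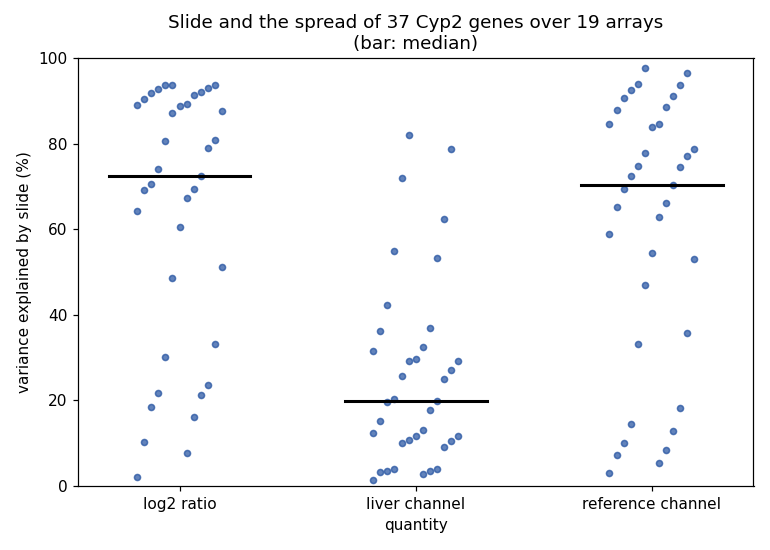
Share of the variance over 19 arrays that lay between slides, in percent, for the log2 ratio, the liver channel and the reference channel; each point is 1 of 37 Cyp2 genes and the bar is the median. The medians are 72.4%, 19.8% and 70.4%, so by the median slide took the smallest share in the liver channel.

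Of the Cyp2a genes, the steroid hydroxylase Cyp2a12 had ratios of 8.14 ± 1.05 in controls and 7.67 ± 0.49 at 25 mg/kg (SD, n = 5 each). Its change was -0.47, or -0.34 with the block (limma adjusted p = 0.529). Cyp2a22 was above background on no array.

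In the Cyp2b subfamily, Cyp2b10, the classical target of CAR, varied more between animals than between doses. Its ratios were 2.40, 1.56, 2.37, 5.32 and 3.73 in the controls, 3.34, 2.69, 3.29, 1.98 and 0.87 at 6.25 mg/kg, 1.26, -0.03, 1.49 and 2.99 at 12.5 mg/kg, and 1.48, 3.19, 2.69, 2.72 and 2.89 at 25 mg/kg. All doses overlapped the controls, among which replicate 4 was the highest of the 19 arrays. The change was -0.48 at 25 mg/kg (SE 0.65; -0.34 with the block, 95% interval -1.62 to 0.95). At 12.5 mg/kg it was -1.64 (SE 0.68; -1.51 with the block, limma adjusted p = 0.465). The interval at 25 mg/kg extends past a 2-fold fall.

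Cyp2b9 and Cyp2b13, which are known from female liver, were near the limit of detection in these males. The liver signal of Cyp2b13 was above background on 0 of 5 control arrays and 1 of 5 arrays at 6.25 mg/kg. At 12.5 mg/kg this held for 0 of 4 arrays and at 25 mg/kg for 4 of 5. The filter asked for 4 arrays, so the gene was kept only through the 25 mg/kg group. Its pattern and its change are therefore no evidence of a rise. Its ratio change at 25 mg/kg was 0.24 (SE 0.23) and did not pass the test. Cyp2b9 differed by 0.03, and by 0.09 with the block. Cyp2b19 and Cyp2b23 were above background on no array.

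The 12 measured Cyp2c genes, many of them epoxygenases of arachidonic acid, had 9 lower and 3 higher ratios at 25 mg/kg and none called. Cyp2c29, a CAR target, had ratios of 8.89 ± 0.79 in controls and 8.76 ± 0.59 at 25 mg/kg (SD, n = 5 each), a change of -0.13, or 0.06 with the block (95% interval -0.19 to 0.31). Cyp2c50 had 6.13 ± 0.71 and 5.96 ± 0.55, and Cyp2c38 differed by -0.19, or -0.10 with the block. Cyp2c70, the enzyme that makes the muricholic acids of mouse bile, differed by -0.16, or 0.05 with the block (interval -0.24 to 0.35). With the block the ratio intervals at 25 mg/kg lay within a 2-fold change for every measured Cyp2c gene except Cyp2c23.

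Cyp2c55 had the smallest adjusted p of the family under the block at 25 mg/kg. Its ratios were -0.32, -0.42, -0.26, -0.72 and -0.36 in the controls and -0.59, -0.25, -0.51, -1.28 and -1.27 at 25 mg/kg. At 25 mg/kg 2 arrays lay below all controls and the other 3 lay at the controls' level. The change was -0.36 (SE 0.22), or -0.46 with the block (SE 0.19, limma adjusted p = 0.278), which did not pass the test.

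For Cyp2c23, an epoxygenase best known from kidney, single animals set the spread. Its ratio was 4.92 in replicate 1 at 25 mg/kg and 5.42 in replicate 5 at 6.25 mg/kg, while controls ran from 7.16 to 8.51 and the other 4 arrays at 25 mg/kg from 6.85 to 7.88. The change of -0.77 (SE 0.50; -0.68 with the block, 95% interval -1.75 to 0.40) did not pass the test. Cyp2c65 was above background on 1 array only.

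All 8 Cyp2d genes had lower ratios at 25 mg/kg, from -0.08 (Cyp2d22) to -0.37 (Cyp2d26), with 3 higher and 5 lower under the block and none called. Cyp2d10 differed by -0.34, Cyp2d12 by -0.29 and Cyp2d11 by -0.28, or by -0.10, -0.10 and -0.03 with the block. Cyp2d9, a testosterone 16-alpha-hydroxylase known from male liver, differed by -0.16, or 0.04 with the block. In the liver channel it differed by -0.14, or -0.03 with the block. The 7 members other than Cyp2d40 lay there between -0.17 (Cyp2d12) and 0.14 (Cyp2d26), or between -0.09 and 0.15 with the block, and none was called.

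The single-gene subfamilies hold some of the best studied members. Cyp2e1, the ethanol- and acetaminophen-oxidising enzyme of the pericentral zone, had ratios of 8.40, 6.96, 7.99, 9.68 and 9.69 in the controls and 7.68, 8.64, 6.60, 7.10 and 9.67 at 25 mg/kg. The 2 highest controls and the highest array at 25 mg/kg all lay on the slide scanned later. The change of -0.61 (SE 0.65) became -0.35 with the block (95% interval -0.93 to 0.22), and the liver channel alone gave 0.18, or 0.20 with the block (limma adjusted p = 0.298). Its second probe gave -0.17, and 0.05 with the block.

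Cyp2f2, known for periportal liver and for the airway, had ratios that followed the slide. Its values were 7.15, 6.71, 6.39, 8.20 and 7.99 in the controls and 7.27, 7.05, 6.42, 6.67 and 8.08 at 25 mg/kg. Within each slide the groups' means differed by at most 0.01. The change was -0.19 (SE 0.38), or -0.00 with the block (95% interval -0.23 to 0.23).

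Cyp2g1, an enzyme best known from the olfactory lining, had the largest ratio change of the family at 25 mg/kg. Its ratios were 1.72, 1.83, 2.19, 2.57 and 3.64 in the controls, 3.64, 3.09, 3.50, 2.15 and 4.73 at 6.25 mg/kg, 4.19, 2.52, 2.11 and 1.14 at 12.5 mg/kg, and 4.43, 3.75, 1.89, 3.18 and 4.17 at 25 mg/kg. Every dose overlapped the controls. At 25 mg/kg it was 1.09 above the controls (SE 0.57), or 1.11 with the block (SE 0.51, 95% interval 0.04 to 2.17, limma adjusted p = 0.326), which did not pass the test over all probes. The single slides gave 1.06, 0.52 and 2.37.

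At 12.5 mg/kg the Cyp2g1 ratio rested on 1 array. In replicate 4 the raw reference signal was 1591, against 37 to 70 on the other arrays, with a liver signal of 1116. With that array the change was 0.10, or 0.20 with the block, and without it 0.55, or 1.08 with the block (SE 0.43, limma adjusted p = 0.521). In the liver channel with the block Cyp2g1 was 0.88 above the controls at 6.25 mg/kg, 1.08 at 12.5 mg/kg and 0.89 at 25 mg/kg (adjusted p = 0.295, 0.340 and 0.169), and none of these passed.

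Cyp2u1, a fatty acid hydroxylase, was the one member with an unadjusted p under 0.05 at 25 mg/kg without the block. Its ratios were 1.20, 1.42, 1.20, 1.71 and 1.71 in the controls and 0.90, 1.21, 1.05, 1.24 and 0.83 at 25 mg/kg. The ranges overlapped, since the highest 2 arrays at 25 mg/kg reached the lowest controls. The change was -0.40 (SE 0.17, limma adjusted p = 0.611), or -0.35 with the block (adjusted p = 0.317). In the liver channel, where its groups did not overlap (1.25% of named genes were lower without overlap), it was -0.20 with the block (adjusted p = 0.658).

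The remaining subfamilies had small differences. The 5 Cyp2j genes, epoxygenases of arachidonic acid, differed by -0.12 to -0.05 at 25 mg/kg, and with the block Cyp2j5 differed by 0.04, Cyp2j6 by -0.03, Cyp2j8 by 0.01 and Cyp2j9 by 0.03. Cyp2r1, the vitamin D 25-hydroxylase, differed by -0.20, or -0.03 with the block (95% interval -0.28 to 0.22). Cyp2s1, described elsewhere as a target of the aryl hydrocarbon receptor, had ratios of -2.51 ± 0.34 in controls and -2.57 ± 0.32 at 25 mg/kg (SD, n = 5 each), a change of -0.06, or -0.02 with the block (interval -0.41 to 0.38). Cyp2t4 differed by -0.09, or -0.05 with the block. Both Cyp2s1 and Cyp2t4 were dim in liver, which limits what these values bound. Cyp2s1 was above background on 4 of 5 control arrays and 4 of 5 at 25 mg/kg. For Cyp2t4 this held for 3 of 5 and 4 of 5. Cyp2j11 was above background on no array and Cyp2w1 on 2.

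**Figure D4:**
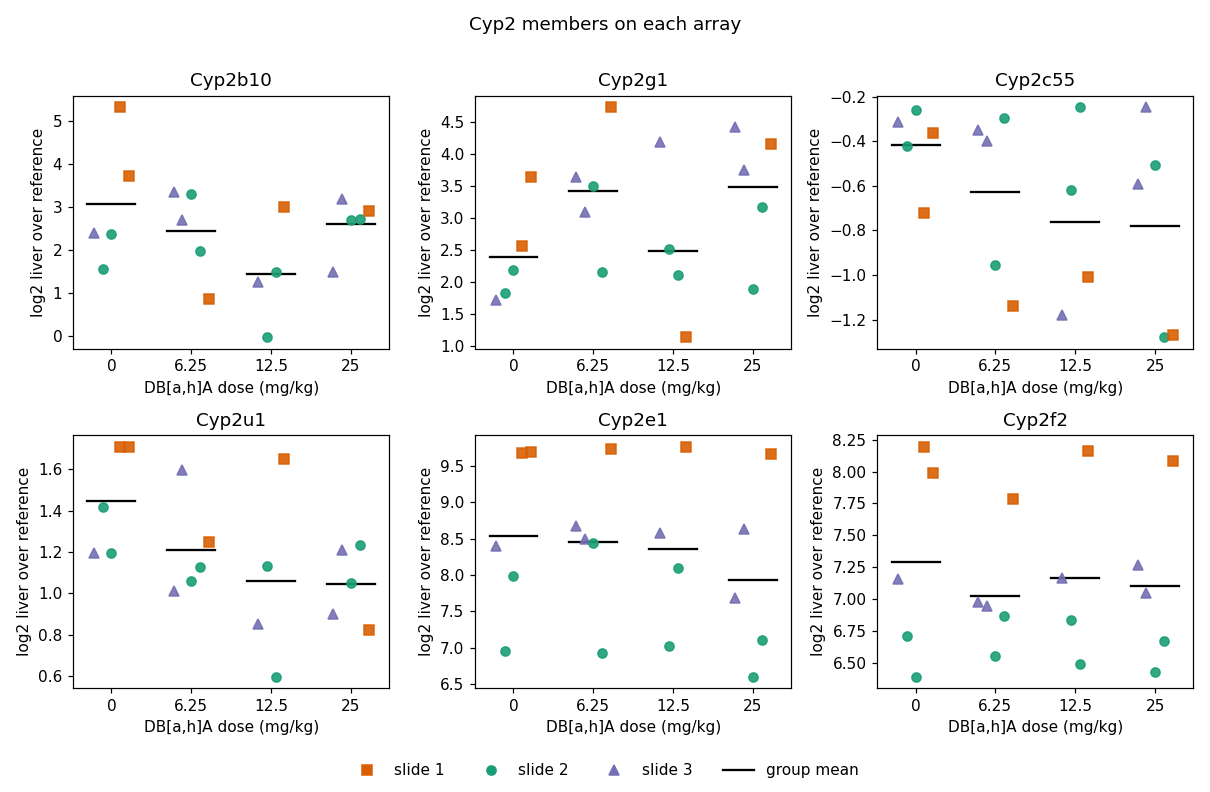
Log2 ratio of liver over reference for Cyp2b10, Cyp2g1, Cyp2c55, Cyp2u1, Cyp2e1 and Cyp2f2 against DB[a,h]A dose in mg/kg; each point is 1 array, its shape and colour the slide, and the line the group mean. Doses overlap the controls in every panel, and for Cyp2f2 the points of 1 slide lie together whatever the dose.

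Grouped by known regulation, no set of members held a gene called in the ratio. Of 7 listed CAR-responsive Cyp2 genes, 6 were measured and 0 called at 25 mg/kg, 1 higher and 5 lower, with a median ratio change of -0.15, or 0.05 with the block. Of 6 pericentral Cyp2 genes 5 were measured, with a median of -0.13, or 0.06. Of 6 female-biased Cyp2 genes, Cyp2a4, Cyp2b9, Cyp2b10 and Cyp2b13 were measured, with 3 higher and a median of 0.09, or 0.16 with the block. Cyp2b13, one of the 3, was kept only through its arrays at 25 mg/kg. The medians of all named genes were near 0 beside each of these.

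Genes that supply or control P450 enzymes included some that did change in the ratio. All 14 genes of electron supply and haem synthesis were measured, and 0 were called at 25 mg/kg. With the block 1 rose, the reductase Por itself, by 1.89 (limma adjusted p = 0.0346; 1.81, SE 0.40, adjusted p = 0.101 without it). Among 30 regulators 29 were measured, and 1 rose and 1 fell. Dbp rose by 3.71 (SE 0.54, limma adjusted p = 0.0129; 3.83 with the block, adjusted p = 0.0026). Nfil3, a repressor of the same sites, fell by 1.45 on the log2 scale (SE 0.25, limma adjusted p = 0.0396). Tef rose by 1.90 under the block only (adjusted p = 0.0026; 1.69, adjusted p = 0.0982 without it).

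The receptor genes themselves did not pass: the ratio change at 25 mg/kg was -0.21 for Ahr (limma adjusted p = 0.863), 0.48 for Arnt (adjusted p = 0.335) and 0.12 for Nr1i3 (adjusted p = 0.950). Dbp also stood 3.52 above the controls at 12.5 mg/kg (limma adjusted p = 0.0661) and 2.71 at 6.25 mg/kg (adjusted p = 0.374). With the block these were 3.65 (limma adjusted p = 0.0257) and 2.83 (adjusted p = 0.0704). Of these only the 12.5 mg/kg value with the block passed. Of the 2 measured Cyp2 genes listed as clock outputs, Cyp2a4 differed in the liver channel as given above and Cyp2b10 by -0.40 there (limma adjusted p = 0.868; -0.33 with the block, adjusted p = 0.859). Among 7 measured pericentral markers only Avpr1a was called, and under the block only (-1.06, limma adjusted p = 0.0421, against -1.12 and 0.109 without it). With the block the others differed by 0.29 (Slc1a2), 0.06 (Gulo), 0.02 (Rhbg), -0.02 (Glul), -0.04 (Oat) and -0.39 (Lgr5). No periportal gene was called. Whether time of killing differed between groups is not given in the sources used here.

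Several genes had more than 1 measured probe, and 9 could be compared. At 25 mg/kg the probes of Cyp2c37, Cyp2c38, Cyp2c54, Cyp2c67 and Cyp2j6 differed in sign, as in Cyp2c38 (-0.19 and 0.22). None of these probes passed the test. Members of the Cyp2c, Cyp2d and Cyp2j clusters have near-identical copies, and a probe of one may bind transcripts of another.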

How the data were processed

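Liver RNA and reference RNA were co-hybridised to 2-colour arrays and the scans were quantified in Feature Extraction (version 10.7.3.1 in the headers). The deposited scanner files hold spot and background intensity as medians per channel. A deposited table of log2 ratios was used as an alternative; how the authors made it is not given in the sources used here. Background was corrected by normexp (offset 50) and ratios were loess-normalized within arrays in limma 3.58.1 under R 4.3.3, control spots at weight 0 and outlier-marked spots missing (0.132% of kept values). A probe was kept when its liver spot was well above background on at least 4 arrays (29415 of 55681), and a gene is its brightest kept probe. Of the 47 Cyp2 genes, 37 were measured. One model per probe over all 4 groups gave each contrast, with Benjamini-Hochberg adjustment over the kept probes and 0.05 as threshold. For single channels, normexp was followed by quantile normalization. Gene names came from RefSeq (GRCm38.p6): 33064 probes carried a RefSeq accession and 79.9% of these were named.

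The number of arrays limits the precision. Animals are taken as separate samples from the labels. Members and gene lists were chosen with earlier results of these data known, and genes named are Cyp2 members called in any test of the ratio, those of smallest p in each subfamily (up to 4 in Cyp2b, Cyp2c, Cyp2d and Cyp2j), a list of well-studied members, and the 4 of smallest p in the pathway list. Cyp2c37, Cyp2c54, Cyp2c67, Cyp2c70, Cyp2d22, Cyp2d40 and Cyp2j13 fall outside that rule as applied to the ratios. The receptor genes and the pericentral markers do so too. All of these were named after their values were seen. The ratio fit without the block was tested on simulated data that held no slide effect. The fits with the block and those of single channels were not tested in this way. Alternatives covered background, normalization, filters, probe choice, slide and each array in turn. The 3 slides hold all groups, so slide could enter as a block.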

Additional observations from a re-analysis of the deposited data

Results flagged for a closer look

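Among 104 groups of 4 or 5 arrays, 6 held a single array that stood far from the rest. The genes share the same arrays, so these groups are not independent and the count was not set against chance. All 6 lay at 6.25 mg/kg. At 6.25 mg/kg, replicate 5, the one array of its group on the slide scanned later, was apart for 4 genes: Cyp2c23 (log2 ratio 5.42, low), Cyp2c50 (6.78, high), Cyp2d11 (5.77, high) and Cyp2d12 (7.63, high). Replicate 3 of that dose was high for Cyp2b13 (0.751) and replicate 4 for Cyp2s1 (-2.05).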

How the results depend on the processing

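No paired analysis was possible because the replicate numbers were given in accession order only. The count of called Cyp2 genes was 0 in every setting run on the ratios and in the liver channel without the block. The liver channel alone with the slide as a block, chosen after seeing the data, gave 2 at 25 mg/kg, with Cyp2a4 at 1.46. Its other preparations gave 1 or 2, leaving out 1 array 0 to 2, and leaving out the slide scanned later 0. Of 800 recomputed gene values, 731 kept their direction and side of the threshold and 68 turned sign, all as log2 changes at 25 mg/kg and none of them called. With the slide block, Cyp2c29 turned to 0.058, Cyp2c50 to 0.042, Cyp2d9 to 0.043, Cyp2j5 to 0.045, Cyp2j8 to 0.012 and Cyp2j9 to 0.027. Without background subtraction Cyp2j9 was 0.0010. With the scanner software's processed signals Cyp2j5 was 0.037, Cyp2j6 0.034, Cyp2j9 0.098, Cyp2s1 0.13 and Cyp2t4 0.18. In the deposited table Cyp2a4 was -0.028, Cyp2j5 0.16 and Cyp2j9 0.041. In the liver channel, first without and then with the block, Cyp2a12 was 0.23 and 0.21, Cyp2c29 0.13 and 0.16, Cyp2c50 0.29 and 0.32, Cyp2d26 0.14 and 0.15, Cyp2e1 0.18 and 0.20, Cyp2f2 0.024 and 0.056, and Cyp2s1 0.14 and 0.15. Cyp2t4 was 0.015 with the block. The mean over kept probes gave 0.015 for Cyp2c38. Without the slide scanned later, also added after seeing the data, Cyp2b10 was 0.41, Cyp2c29 0.19, Cyp2c38 0.050, Cyp2c50 0.10, Cyp2d9 0.12, Cyp2f2 0.10, Cyp2j5 0.25, Cyp2j6 0.058, Cyp2j8 0.16, Cyp2j9 0.24, Cyp2r1 0.10 and Cyp2t4 0.019. Leaving out 1 array at a time gave ranges that crossed 0 for 13 genes: -0.057 to 0.33 (Cyp2a4), -0.062 to 0.20 (Cyp2b9), -0.86 to 0.079 (Cyp2b10), -0.38 to 0.085 (Cyp2c29), -0.40 to 0.052 (Cyp2c50), -0.43 to 0.053 (Cyp2d9), -0.43 to 0.038 (Cyp2f2), -0.33 to 0.10 (Cyp2j5), -0.22 to 0.0039 (Cyp2j6), -0.21 to 0.065 (Cyp2j8), -0.25 to 0.10 (Cyp2j9), -0.42 to 0.028 (Cyp2r1) and -0.15 to 0.061 (Cyp2s1). The cause of these turns was not tested. Signal over background limits the rest, since 6 of the 43 genes on the array were too dim in liver to measure.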
